A study of Homo sapiens with 6 samples.

Results

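Of the genes measured in these cells, 37 genes of fatty acid oxidation and ketone metabolism are described here. They were taken as a list of names and were matched by identifier to a count table of 67060 human genes. Of the 37 genes, 35 passed edgeR's filter on low counts, among 24500 genes tested in all. Of the other 2, *ACSL6* had between 2 and 8 counts in each library and *DECR2* was listed at 0 in every library. The cells were SH-SY5Y, a neuroblastoma line of sympathetic origin, which the labels class as neuronal progenitor. They received 0.5 ul of an adenovirus for 24 h. One virus, Ad CMV 3xFlag-*Esrrg* (ERRg in the labels), expressed Flag-tagged mouse *Esrrg* from the CMV promoter, which is active in any infected cell. The control virus, Ad CMV GFP (GFP in the labels), expressed GFP. Total RNA was depleted of ribosomal RNA and sequenced, with 3 libraries per group, numbered 1, 3 and 4 for GFP and 2, 3 and 4 for ERRg. The sources do not say whether these libraries came from separate cultures, so p-values measure only the spread between these libraries, which may be technical. The comparison asked which genes of this pathway had other levels when ERRγ was overexpressed.

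ERRγ is an orphan nuclear receptor of the estrogen-related receptor family, which binds DNA at a short element around AAGGTCA and is known for activating genes of mitochondrial energy metabolism in heart, muscle and neurons. Long-chain fatty acids are first joined to coenzyme A, moved into mitochondria as carnitine esters, and then shortened in repeated rounds of dehydrogenation, hydration, a further dehydrogenation and thiolysis, each round releasing acetyl-CoA. Electrons of the first step pass through the electron transfer flavoprotein to the respiratory chain. Peroxisomes run a parallel pathway for very long and branched chains, and ketone bodies made in liver are turned back into acetyl-CoA in brain and muscle. Neurons are usually described as oxidizing little fatty acid compared with heart or liver.

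Between 24969759 and 29700980 reads per GFP library and between 26513620 and 40859666 per ERRg library were counted on genes. Levels are given as CPM, counts scaled to library size with TMM normalization, and differences as log2 fold changes of ERRg over GFP with their standard error (SE). A gene was called higher or lower at an adjusted p below 0.05 in edgeR's quasi-likelihood test and a change of at least 1.5-fold. One property of the libraries moved with the groups. The share of all reads that fell in no annotated gene (no feature, in the words of HTSeq-count) was 51.3% to 52.2% in the GFP libraries, and 46.6%, 31.6% and 29.5% in ERRg 2, 3 and 4. The first principal component held 74.7% of the variance, and ERRg 2 stood apart from ERRg 3 and 4 on the second, which held 10.6%. Of 4 neural progenitor markers, *SOX2*, *NES* and *MSI1* were detected, with a summed level of 335 to 396 CPM in GFP and 415 to 519 CPM in ERRg, while *PAX6* had at most 3 counts. Of 8 adrenergic markers 7 were detected, summing to 698 to 760 CPM in GFP and 522 to 692 CPM in ERRg, and *TH* was listed at 0. The sum is mostly *HAND2*, and single markers moved apart, with *DBH* and *GATA2* called lower (log2 fold changes −2.64 ± 0.14 and −1.08 ± 0.13) and *PHOX2A* called higher (0.81 ± 0.15). The part of these in the results below was not tested. All 7 mesenchymal markers were detected at 5226 to 5465 CPM in GFP and 5474 to 6246 CPM in ERRg. Of the markers of embryonic kidney cells, the kind of cell in which the virus was grown, *PAX2* was at 0 and *LHX1* had at most 1 count in a library.

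*ESRRG* itself was read at 83.6, 90.4 and 86.9 CPM in GFP 1, 3 and 4, and at 569.6, 772 and 778 CPM in ERRg 2, 3 and 4. All ERRg libraries lay far above all GFP libraries and the log2 fold change was 3.02 ± 0.14 (SE, edgeR adjusted p = 6.3e-07). Reads from the mouse transgene reached the human gene only as far as both sequences match, so this value is no measure of the dose. ERRg 2 had the lowest level of the ERRg libraries.

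Genes of mitochondrial fatty acid oxidation were called higher with ERRγ in most steps from the carnitine shuttle to the thiolase, by about 1.5-fold to 2.95-fold. Of the 35 genes tested, 17 were called higher, which is 48.6%, beside 17.3% of all tested genes and 25.9% of the 13746 tested protein-coding genes. Only *SLC22A5* and *EHHADH* were called lower, which is 5.71% beside 16.8% of all tested genes and 12.4% of the protein-coding ones. A further 6 genes were above GFP with an adjusted p below 0.05 but less than 1.5-fold, and 10 did not pass the test. The 35 genes had a median log2 fold change of 0.51, beside −0.10 over all tested genes and 0.12 over the protein-coding ones. The GFP and ERRg libraries did not overlap for 28 of the 35 genes, beside 58.1% of all tested genes. In a bulk sample, a larger share of infected cells and more RNA per infected cell cannot be told apart.

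**Figure D1:**
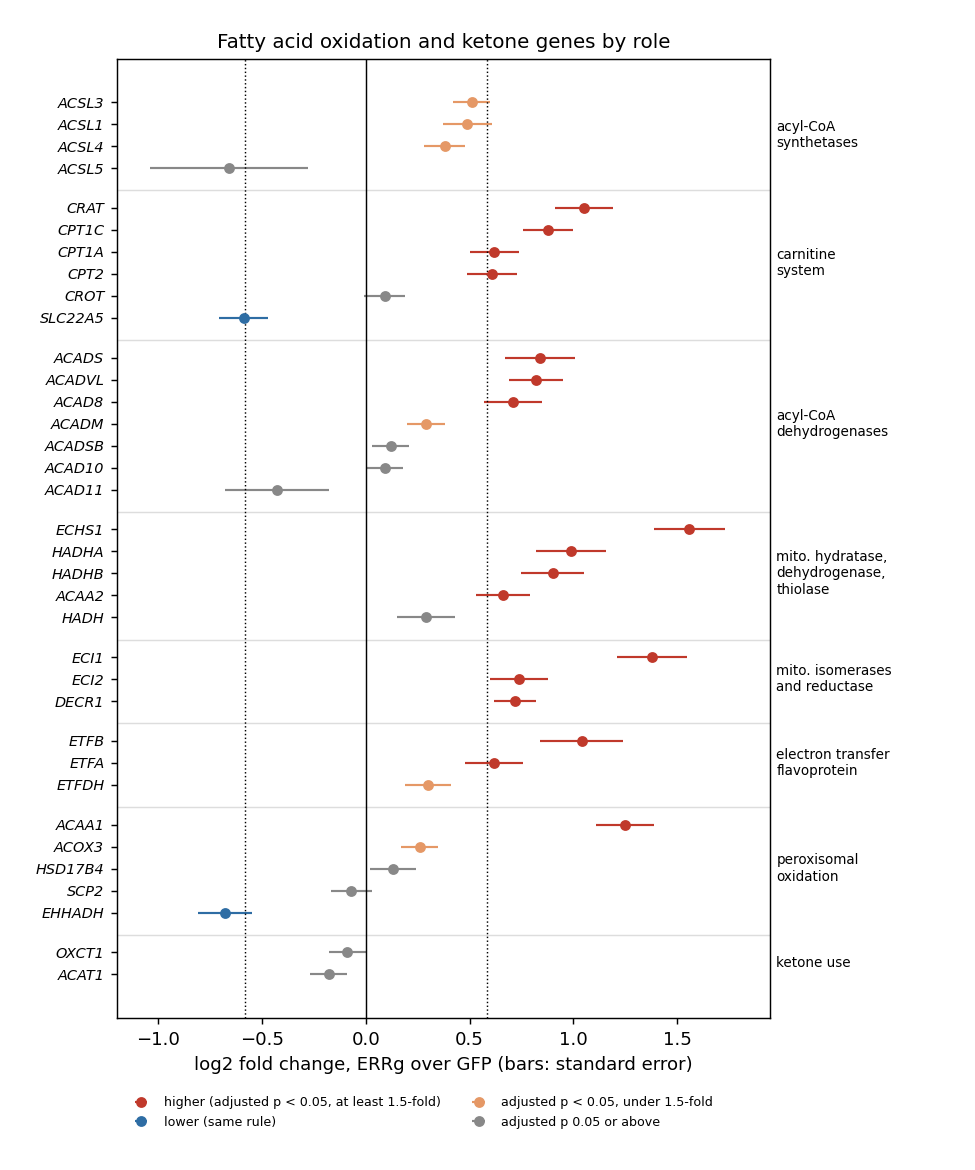
Log2 fold change of ERRg over GFP for the 35 tested genes, grouped by role, with standard errors as bars, 3 libraries per group and dotted lines at 1.5-fold. The mitochondrial groups hold most of the 17 higher genes, the acyl-CoA synthetases and the ketone genes hold none, and the 2 lower genes are *SLC22A5* and *EHHADH*.

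The acyl-CoA synthetases, which activate fatty acids by joining them to coenzyme A, held no called gene among 4 tested. *ACSL3*, an enzyme of the endoplasmic reticulum and lipid droplets, lay at 139, 126 and 129 CPM in GFP 1, 3 and 4 and at 184, 189 and 185 CPM in ERRg 2, 3 and 4. *ACSL4*, which prefers arachidonic acid, lay at 70.6, 63.5 and 57.5 CPM in GFP and at 85.5, 87.3 and 76.9 CPM in ERRg. In both genes every ERRg library was above every GFP library, but the log2 fold changes of 0.51 ± 0.09 (SE, edgeR adjusted p = 0.0012) and 0.38 ± 0.10 (SE, edgeR adjusted p = 0.012) were below 1.5-fold. *ACSL1*, the main form in heart and fat, had a value of the same kind (log2 fold change 0.49 ± 0.12). *ACSL5* had between 8 and 30 counts per library, and its log2 fold change of −0.66 ± 0.38 did not pass the test.

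The carnitine system moves long-chain acyl groups across the mitochondrial membranes. Of its 6 genes, 4 were called higher, 1 was called lower and 1 did not pass the test. *CRAT*, the carnitine acetyltransferase of the mitochondrial matrix, lay at 30.6, 35.8 and 32.96 CPM in GFP and at 55.4, 69.6 and 80.6 CPM in ERRg. All ERRg libraries were above all GFP libraries, and the log2 fold change was 1.05 ± 0.14 (SE, edgeR adjusted p = 1.9e-04). *CPT1C*, the brain form of carnitine palmitoyltransferase 1, which sits in the endoplasmic reticulum and has little transferase activity, had 89.1, 91.4 and 88.8 CPM in GFP. It had 139, 163 and 192 CPM in ERRg (log2 fold change 0.88 ± 0.12, edgeR adjusted p = 2.6e-04), again without overlap and with ERRg 2 lowest. *CPT1A*, the outer membrane enzyme that sets the rate of entry, lay at 99.1, 109 and 106 CPM in GFP and at 135, 173 and 176 CPM in ERRg (0.62 ± 0.12, edgeR adjusted p = 0.0014). *CPT2*, its partner on the inner membrane, lay at 16, 17.6 and 17.2 CPM in GFP and at 22.4, 25.6 and 29.2 CPM in ERRg (0.61 ± 0.12, edgeR adjusted p = 0.0017). For both genes the groups were apart, and the fold was just past the cutoff, at 1.54 and 1.52. *SLC22A5*, the plasma membrane importer of carnitine, went the other way. It had 12.2, 11.6 and 10.9 CPM in GFP and 7.71, 8.44 and 6.93 CPM in ERRg, a log2 fold change of −0.59 ± 0.12 (edgeR adjusted p = 0.0028), with every ERRg library below every GFP library. *CROT*, the octanoyltransferase of peroxisomes, had a log2 fold change of 0.09 ± 0.10.

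The acyl-CoA dehydrogenases of fatty acid oxidation catalyse the first step of each round, each for a range of chain lengths. Of the 7 acyl-CoA dehydrogenase genes listed, which include *ACAD8* of valine breakdown, 3 were called higher and none was called lower. *ACADVL*, for very long chains, lay at 133, 135 and 128 CPM in GFP and at 184, 246 and 268 CPM in ERRg. The GFP libraries were close together, the ERRg libraries were all above them, and the log2 fold change was 0.82 ± 0.13 (SE, edgeR adjusted p = 7e-04). *ACADS*, for short chains, was much less abundant, with 3.90, 4.27 and 3.69 CPM in GFP and 5.57, 7.46 and 8.19 CPM in ERRg (0.84 ± 0.17, edgeR adjusted p = 0.0024). *ACAD8*, the isobutyryl-CoA dehydrogenase of valine breakdown, lay at 22.8, 22.2 and 21.8 CPM in GFP and at 28.5, 39.6 and 41.4 CPM in ERRg (0.71 ± 0.14, edgeR adjusted p = 0.0016). Both of these genes also had no overlap between groups. *ACADM*, for medium chains and a textbook target of nuclear receptors, lay at 39.6, 39.7 and 40.0 CPM in GFP and at 46.3, 50.9 and 48.2 CPM in ERRg. Its groups were apart, but the log2 fold change was 0.29 ± 0.09 (edgeR adjusted p = 0.02), below the fold cutoff. *ACADSB* and *ACAD10* had log2 fold changes of 0.12 and 0.09. *ACAD11* had −0.43 ± 0.25, and this value is uncertain because its exons overlap other annotated genes, where reads could be counted as ambiguous.

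In the hydratase, dehydrogenase and thiolase steps of mitochondria, 4 of 5 genes were called higher. *ECHS1*, the short-chain enoyl-CoA hydratase, lay at 52.8, 67.3 and 57.8 CPM in GFP 1, 3 and 4 and at 127, 197 and 200.3 CPM in ERRg 2, 3 and 4. Its log2 fold change of 1.56 ± 0.17 (SE, edgeR adjusted p = 8.2e-05), or 2.95-fold, was the largest among the 35 genes, and its lowest ERRg library stood well above its highest GFP library. *HADHA* and *HADHB* encode the α and β subunits of the mitochondrial trifunctional protein, which carries out the last 3 steps on long chains. *HADHA* lay at 150.1, 183 and 165 CPM in GFP and at 237, 371 and 383 CPM in ERRg (0.99 ± 0.17, edgeR adjusted p = 9.1e-04). *HADHB* lay at 103, 119 and 107 CPM in GFP and at 154, 223 and 236 CPM in ERRg (0.90 ± 0.15, edgeR adjusted p = 7.9e-04). Both subunits followed the same order of libraries within ERRg, with no overlap between groups. *ACAA2*, the mitochondrial 3-ketoacyl-CoA thiolase, lay at 53.8, 62.1 and 57.4 CPM in GFP and at 72.04, 98.2 and 104 CPM in ERRg (0.66 ± 0.13, edgeR adjusted p = 0.0025). *HADH*, the dehydrogenase for medium and short chains, was the exception in this group. It lay at 21.2, 23.6 and 23.5 CPM in GFP and at 22.1, 28.5 and 32.8 CPM in ERRg, so that ERRg 2 lay within the GFP range, and the log2 fold change of 0.29 ± 0.14 did not pass the test (edgeR adjusted p = 0.11).

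*HADHA* and *HADHB* lie head to head on chromosome 2, with starts 307 bases apart in GRCh38.p14. The RefSeq promoter windows of both genes, from 250 bases before to 50 bases after the start, share 194 bases. They are shown because both subunits changed together and are read from opposite strands of nearly the same DNA. Capitals mark the GC box GGGCGG on either strand, of which the *HADHA* window holds 1 and the *HADHB* window 2. The *HADHA* match lies in the shared bases and is the first *HADHB* match read from the other strand.
HADHA, chr2:26244583-26244882, minus strand: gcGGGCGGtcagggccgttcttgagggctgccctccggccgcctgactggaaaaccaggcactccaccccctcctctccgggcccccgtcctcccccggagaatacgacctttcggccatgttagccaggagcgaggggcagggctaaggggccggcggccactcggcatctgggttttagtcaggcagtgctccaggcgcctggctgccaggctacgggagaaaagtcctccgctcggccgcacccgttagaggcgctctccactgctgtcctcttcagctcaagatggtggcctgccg
HADHB, chr2:26244689-26244988, plus strand: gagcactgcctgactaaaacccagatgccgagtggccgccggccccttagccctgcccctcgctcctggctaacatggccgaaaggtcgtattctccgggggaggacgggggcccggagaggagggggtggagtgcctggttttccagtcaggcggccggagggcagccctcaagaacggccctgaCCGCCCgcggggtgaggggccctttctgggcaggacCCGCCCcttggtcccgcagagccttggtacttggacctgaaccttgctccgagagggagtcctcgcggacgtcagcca

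All 3 genes of the auxiliary enzymes for unsaturated chains were called higher. *ECI1*, the main enoyl-CoA isomerase of mitochondria, lay at 19.8, 22.6 and 20.2 CPM in GFP and at 38.2, 59.4 and 65.5 CPM in ERRg. The ERRg libraries were all above the GFP libraries but spread widely, and the log2 fold change was 1.38 ± 0.17 (SE, edgeR adjusted p = 1.7e-04), or 2.61-fold. *DECR1*, the 2,4-dienoyl-CoA reductase, lay at 27.9, 29.3 and 30.5 CPM in GFP and at 42.2, 51.1 and 51.3 CPM in ERRg (0.72 ± 0.10, edgeR adjusted p = 3.6e-04). *ECI2*, an isomerase of mitochondria and peroxisomes, lay at 16.2, 16.4 and 15.6 CPM in GFP and at 20.98, 29.6 and 29.8 CPM in ERRg (0.74 ± 0.14, edgeR adjusted p = 0.0014). The groups did not overlap for either gene. The exons of *ECI2* share 29.8% of their bases with genes on the opposite strand, among them *TEX56P*, and the strand setting of the counting is not given in the sources used here.

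The electron transfer flavoprotein and its dehydrogenase hand electrons of the first step to ubiquinone. *ETFA*, the α subunit, lay at 59.3, 56.8 and 61.5 CPM in GFP and at 70.96, 104 and 98.4 CPM in ERRg (log2 fold change 0.62 ± 0.14, edgeR adjusted p = 0.0035). *ETFB*, the β subunit, lay at 3.62, 4.91 and 3.23 CPM in GFP and at 6.13, 8.79 and 9.13 CPM in ERRg (1.04 ± 0.20, edgeR adjusted p = 0.002). Both were called higher, and every ERRg library was above every GFP library. *ETFDH*, the ubiquinone oxidoreductase, had a log2 fold change of 0.30 ± 0.11, below the fold cutoff.

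Of 5 peroxisomal genes tested, *ACAA1* was called higher and *EHHADH* lower (20% each, near the shares of all tested genes given above), and the others were not called. *ACAA1*, the peroxisomal 3-ketoacyl-CoA thiolase, lay at 15.96, 19.4 and 17.2 CPM in GFP and at 33.1, 45.1 and 46.8 CPM in ERRg. There was no overlap, and the log2 fold change was 1.25 ± 0.14 (SE, edgeR adjusted p = 9.5e-05), or 2.38-fold. Its exons share 19.7% of their bases with *DLEC1* on the opposite strand. *EHHADH*, the hydratase and dehydrogenase of the same organelle, lay at 9.01, 10.5 and 9.67 CPM in GFP and at 5.69, 6.74 and 5.72 CPM in ERRg. Every ERRg library was below every GFP library, and the log2 fold change was −0.68 ± 0.13 (SE, edgeR adjusted p = 0.0018). *HSD17B4*, the D-specific enzyme for the same steps, had 0.13 ± 0.11, *SCP2*, a thiolase and sterol carrier, had −0.07 ± 0.10, and *ACOX3*, an oxidase for branched chains, had 0.26 ± 0.09, below the fold cutoff.

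The genes of ketone use were not called. *OXCT1*, which transfers coenzyme A to acetoacetate, lay at 50.4, 44.2 and 47.8 CPM in GFP and at 44.03, 43.6 and 46.5 CPM in ERRg, with overlapping groups and a log2 fold change of −0.09 ± 0.09 (edgeR adjusted p = 0.46). *ACAT1*, the acetoacetyl-CoA thiolase, lay at 41.5, 39.96 and 40.1 CPM in GFP and at 34.9, 36.5 and 35.7 CPM in ERRg. Its ERRg libraries were all below its GFP libraries, but the log2 fold change of −0.18 ± 0.09 did not pass the test (edgeR adjusted p = 0.10).

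Within ERRg, the libraries differed in the size of the change. In 17 of the 17 genes called higher, ERRg 2 was the lowest of the 3 ERRg libraries. This was not particular to them. ERRg 2 was also lowest in *EHHADH*, called lower, and in *CROT*, *SCP2* and *ACAT1*, not called, though not in *SLC22A5* or *OXCT1*. The share over all tested genes was not determined. The median of the genes called higher over the GFP mean, on the log2 scale, was 0.50 in ERRg 2, 0.90 in ERRg 3 and 1.05 in ERRg 4. ERRg 2 was also the library with the lowest *ESRRG* level and with the share of reads in no feature nearest to GFP. When that share was a covariate of the fit, 3 genes were called higher (*ECHS1*, *ECI1* and *ACAA1*), which is 8.57% of those tested, beside 7.24% of all tested genes. *EHHADH* alone was then called lower. In that fit the 35 genes had a median of 0.20 on the log2 scale, beside 0.02 over all tested genes. The share differs between groups without overlap, so its part in these differences and that of ERRγ cannot be told apart.

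**Figure D2:**
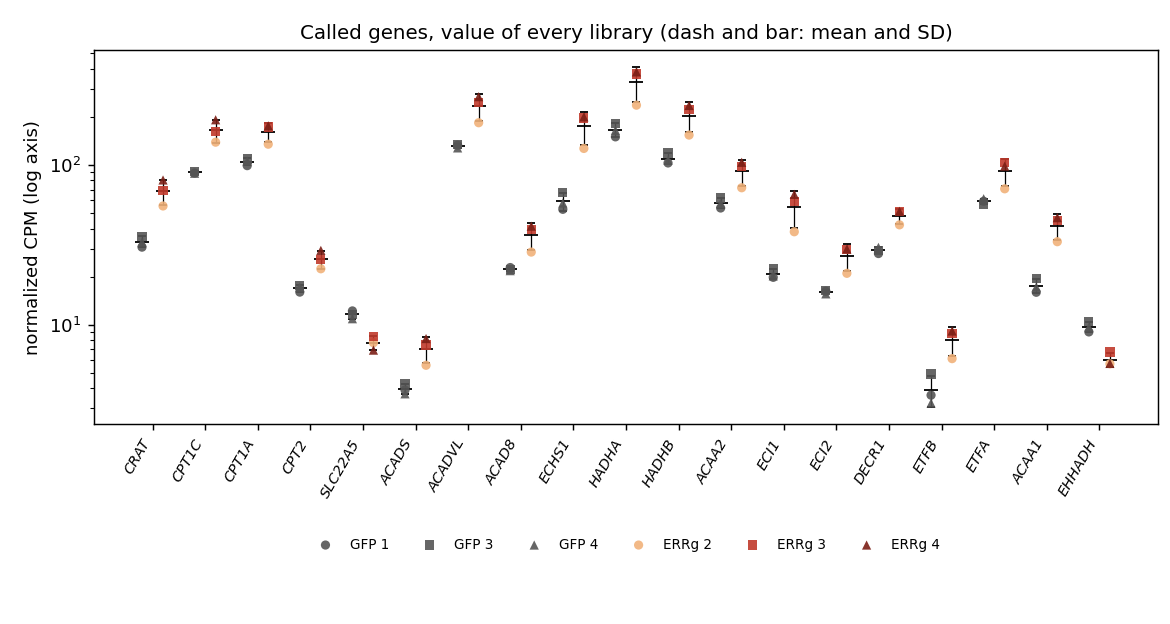
Normalized CPM on a log axis of the 19 called genes in each of the 6 libraries, with the mean as a dash and the SD as a bar (n = 3 per group). ERRg libraries lie above GFP libraries in 17 genes, with ERRg 2 lowest of the ERRg libraries in each of these, and below them in *SLC22A5* and *EHHADH*.

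Levels between genes were compared per kilobase of the canonical transcript. In GFP, *ACADVL* was highest at 60.4 ± 1.52 CPM per kb (SD, n = 3), followed by *HADHA* at 56.4 ± 5.56 and *HADHB* at 54.9 ± 4.31. The SD ranges of these 3 levels overlapped. *ECHS1* at 46.4 ± 5.80 and *HSD17B4* at 45.4 ± 1.71 followed, and their SD ranges overlapped too. In ERRg, *ECHS1* was first at 137 ± 32.1 CPM per kb, with *HADHA* at 112 ± 27.5, *ACADVL* at 107 ± 20.1 and *HADHB* at 102 ± 21.9, and the spread of these 4 levels overlapped. *CPT1C* had a higher level per kilobase than *CPT1A* in both groups, 31.5 ± 0.494 against 19.99 ± 0.949 CPM per kb in GFP. At the low end, *ACAD11* and *ACSL5* lay below 1 CPM per kb in both groups.

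**Figure D3:**
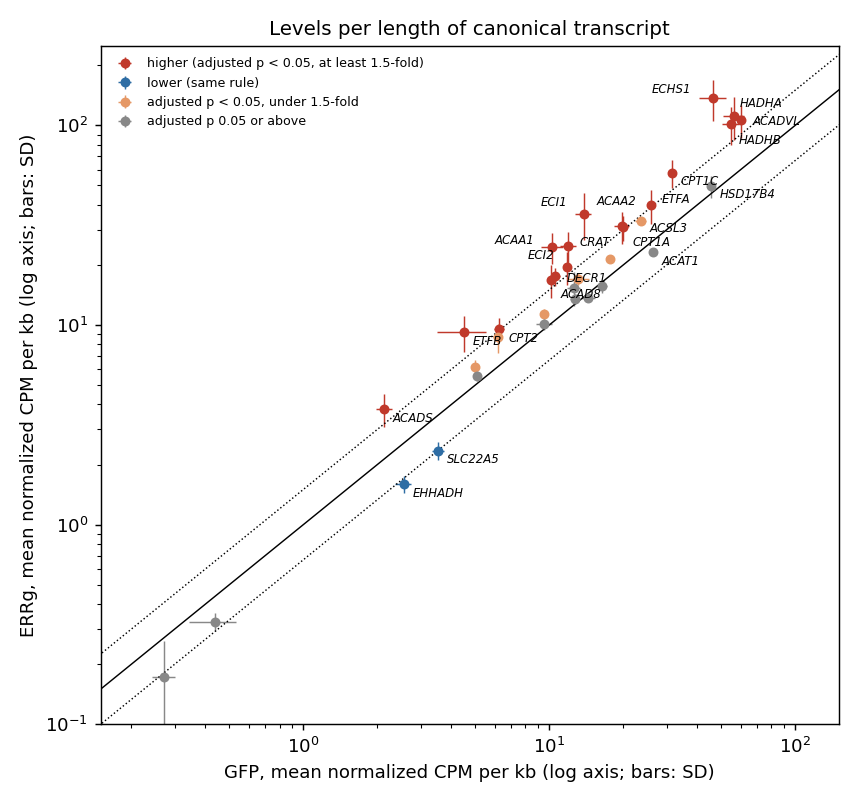
Mean level per kilobase of canonical transcript in ERRg against GFP for the 35 tested genes, both on log axes, with SD bars (n = 3 per group), a solid line of equality and dotted lines at 1.5-fold. *ECHS1*, *HADHA*, *HADHB* and *ACADVL* form the top of both groups, and *ECHS1* moves from 46.4 to 137 CPM per kb.

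Partner genes were compared within each library as 6 log2 ratios of levels per kilobase, with exact two-sided permutation tests, whose smallest p with 3 against 3 libraries is 0.1. The ratio of *HADHA* to *HADHB* was −0.02, 0.06 and 0.07 in GFP and 0.06, 0.18 and 0.14 in ERRg, a difference of 0.09 that did not exceed the spread (exact p = 0.2, adjusted p = 0.3). The ratio of *ETFA* to *ETFB* differed by −0.43 (exact p = 0.3), with overlapping groups, and that of *ACSL3* to *ACSL4* by 0.12 (exact p = 0.3). The groups did not overlap for the other 3 ratios. That of *CPT1A* to *CPT1C* went from −0.66 ± 0.059 (SD, n = 3) to −0.91 ± 0.106 and that of *ACADM* to *ACADVL* from −1.78 ± 0.043 to −2.30 ± 0.245. The summed genes of peroxisomal oxidation over those of mitochondrial oxidation, from the dehydrogenases to the electron transfer flavoprotein, went from −2.13 ± 0.102 to −2.74 ± 0.134. Each of these had an exact p of 0.1 and an adjusted p of 0.2.

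A further 68 genes of the same pathways were listed, of which 57 were tested. Of these, 21 were called higher (36.8%) and 5 lower (8.77%), to be read beside the shares of all tested and of protein-coding genes given above. Their median log2 fold change was 0.31. The thioesterases, which release fatty acids from coenzyme A, had 5 of 7 higher, among them *ACOT2* of mitochondria (1.38 ± 0.16) and *ACOT7*, a form abundant in neurons (1.14 ± 0.17). The other mitochondrial oxidation genes had 6 of 16 higher and 2 lower, those of uptake and activation 5 of 13 higher, those of carnitine and malonyl-CoA 1 of 7 higher and 1 lower, and the peroxisomal ones 1 of 10 higher and 2 lower. Of 4 tested genes of ketone bodies, 3 were higher, among them *AACS* (0.67 ± 0.10) and *ACAT2* (0.86 ± 0.13).

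*HSD17B10*, a dehydrogenase of branched and short chains in mitochondria, lay at 30.8, 40.2 and 40.5 CPM in GFP and at 87.5, 155 and 167 CPM in ERRg, a log2 fold change of 1.88 ± 0.22 (edgeR adjusted p = 1.1e-04). *ACSS1*, the mitochondrial acetyl-CoA synthetase, had 1, 0 and 4 counts in GFP and 27, 66 and 71 counts in ERRg. Its groups were far apart, though the size of its fitted log2 fold change, 4.88 ± 0.58, rests on very few GFP counts. *CPT1B*, the muscle form of carnitine palmitoyltransferase 1, had 30, 26 and 22 counts in GFP and 12, 10 and 13 counts in ERRg, and was called lower (−1.19 ± 0.32, edgeR adjusted p = 0.012). Its exons share 66.4% of their bases with another gene on the same strand, and the share of ambiguous reads was 4.55% to 4.87% in GFP and 5.69% to 9.84% in ERRg, so this value is uncertain. *ABCD2*, a peroxisomal transporter of very long chains, lay at 25.8, 27 and 20.8 CPM in GFP and at 15.8, 11.4 and 11.6 CPM in ERRg (−0.93 ± 0.15, edgeR adjusted p = 6.8e-04).

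Of 11 regulators of these genes, 8 were tested, 3 were called higher (37.5%) and 1 lower (12.5%). The shares were 17.3% and 16.8% of all tested genes, and 25.9% and 12.4% of the protein-coding ones. *ESRRA*, the related receptor ERRα, lay at 13.1, 12.3 and 10.97 CPM in GFP and at 38.2, 47.4 and 51.6 CPM in ERRg, a log2 fold change of 1.92 ± 0.13 (edgeR adjusted p = 5.6e-06), or 3.78-fold. *RXRA*, the partner of the PPAR receptors, lay at 34.2, 38.7 and 39.6 CPM in GFP and at 18.1, 20.2 and 21.95 CPM in ERRg (−0.90 ± 0.11, edgeR adjusted p = 1.3e-04). Neither gene had overlapping groups. *PPARG* and the coactivator *PPARGC1B* were called higher (0.80 ± 0.12 and 0.74 ± 0.20), while *PPARA*, *PPARD*, *PPARGC1A* and *PDK4* did not pass the test.

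Sequences near the starts were searched on both strands for the ERR response element, TNAAGGTCA, and for its core, AAGGTCA, which every full element contains. In the RefSeq promoter windows of 300 bases, found for 30 of the 37 genes, no gene held the full element, beside 0.951% of 35116 windows, and *ACSL6* alone held the core, beside 3.92%. The GC box was found in 27 of the 30 (90%), beside 45% of all windows and 48.3% of all 27305 genes with a window. These windows were not limited to the genes tested here, so this is an unlike background. The E-box CACGTG, a direct repeat of AGGTCA with 1 base between, and the NRF1 palindrome, GCGCA followed by its reverse complement, were in none of the 30, beside 7.26%, 0.0228% and 1.24% of windows. Absence says only that these letters are not in these windows. In the wider windows described next, 36 of the 37 genes held the GC box (97.3%), beside 90.6% of the tested protein-coding genes.

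In the 1000 bases on either side of the GENCODE canonical start, a window chosen after the shorter one had been seen, 5 of the 37 genes (13.5%) held the full element, beside 5.85% of the tested protein-coding genes. They were *ACADM*, *CPT2*, *DECR1*, *ETFDH* and *HADH*. These matches are shown because they are the full elements found near the starts of the 37 genes. The element stands in capitals with 10 bases on each side, read 5′ to 3′ on the strand given, in hg38 coordinates of the element itself, and distances run to its first base in the direction of the gene. The match of *DECR1* is not shown.
ACADM, 824 bases before the start, chr1:75723885-75723893, minus strand: ttttgcccaaTAAAGGTCAcccataaatt
CPT2, 492 bases before the start, chr1:53196332-53196340, minus strand: taatccgtgcTGAAGGTCAttgacatata
ETFDH, 401 bases after the start, chr4:158672697-158672705, plus strand: atatctaggcTAAAGGTCAagggcgggga
HADH, 670 bases before the start, chr4:107989219-107989227, minus strand: tgtggacggtTTAAGGTCAtagagcaacc
HADH, 609 bases before the start, chr4:107989280-107989288, plus strand: gatgggtaacTAAAGGTCAactctctctt

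Of these 5 genes, *CPT2* and *DECR1* were called higher (40%), as were 15 of the 30 tested genes without the element (50%). Over the tested protein-coding genes the shares called higher were 32.7% with the full element and 25.4% without it. *ACADM*, *ETFDH* and *HADH* had log2 fold changes of 0.29 to 0.30. The core was found near the start of 15 of the 37 genes (40.5%), beside 24.1% of the tested protein-coding genes. Among the 14 of them that were tested, 9 were called higher (64.3%), and among the 21 tested genes without it 8 were (38.1%). Over the protein-coding genes these shares were 29.4% with the core and 24.7% without it. *HADHA* and *HADHB* have the same 2 core matches, since their windows overlap. *ECHS1* and *ECI1*, with the largest log2 fold changes, have no match of the core in this window. A match is a description of the letters, and binding was not measured.

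The calls depended on how the libraries were scaled and corrected. With a correction for GC content and transcript length, 15 genes were called higher (42.9% of those tested), beside 15.5% of all tested genes. Of the 17 genes, 12 kept the call, *CPT1A*, *CPT1C*, *CPT2*, *ACADVL* and *ACADS* fell below 1.5-fold, and *ACADM*, *ACSL3* and *ACSL4* were added. With library size as the only scaling, the median log2 fold change of all tested genes was −0.42. The members then had 6 genes higher and 3 lower, beside 8.98% and 30.9% of all tested genes, and a median of 0.19. *ECHS1*, *ECI1* and *ACAA1* were called higher under every alternative run. The direction of the small values of *SCP2*, *OXCT1*, *ACAT1*, *ACAD10*, *CROT*, *ACADSB*, *HSD17B4*, *HADH*, *ACADM*, *ETFDH* and *ACOX3* changed under at least 1 alternative.

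**Figure D4:**
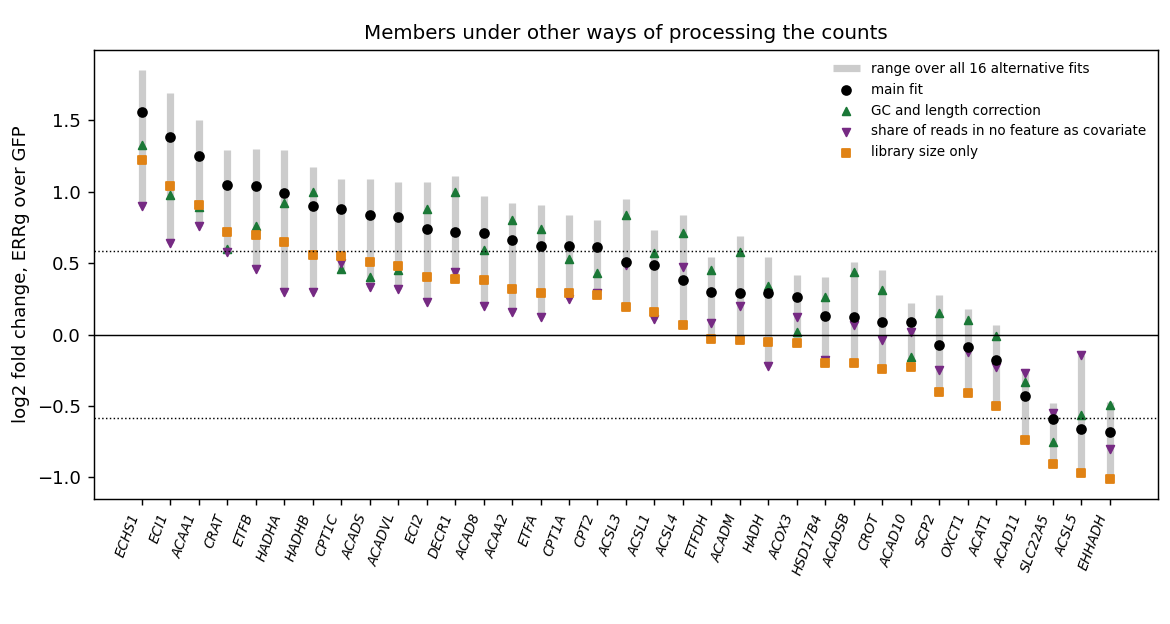
Log2 fold change of ERRg over GFP for the 35 tested genes in the main fit (black), under 3 alternatives (green, purple and orange) and over 16 alternative fits (grey bars, lowest to highest), with dotted lines at 1.5-fold. *ECHS1*, *ECI1* and *ACAA1* stay above the upper line in each fit, and genes in the middle cross 0.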

How the data were processed

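The deposited table, made by the authors, holds raw counts from HTSeq-count for 67060 genes in 6 libraries. The submitters' processing notes name CASAVA, Trim Galore 0.6.7, STAR 2.7.9a, HTSeq 0.11.3, DESeq2 and GRCh38. The annotation release and the strand setting are not given in the sources used here. Identifiers were matched without version to GENCODE release 44 (90.1% found), and the unmatched ones held 0.153% of counts. Groups came from the labels. HTSeq-count's 5 summary entries stayed out of library sizes.

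In R 4.3.3, edgeR 4.0.16 was run on all 24500 genes passing filterByExpr, with TMM factors, the quasi-likelihood test (two-sided) and Benjamini-Hochberg adjustment over all of them. Each SE was obtained by dividing the size of the log2 fold change by the root of its F statistic. CPM were scaled with the TMM factors. A prior count of 2 entered log CPM, used for the principal components, the correlations of deviations and the GC and length curves. It was not the prior of the fitted log2 fold changes. The scripts were tested on simulated data. Ratios used exact permutation tests in scipy 1.17.1. Alternatives were DESeq2 1.42.0, RLE factors, library size only, other filters and cutoffs, a GC and length correction with mgcv 1.9.3, protein-coding genes only, the share of reads in no feature as a covariate, the replicate number as a block, and each library left out in turn. Promoters came from RefSeq (GRCh38.p14), wider windows from hg38 around GENCODE starts.

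The genes and lists were chosen with earlier results of these data known. Values per library are given, in each role, for called genes up to the 4 largest changes, for the 2 most abundant genes where none was called, and for the 3 largest rises and falls among the other genes of the pathway and the regulators. *SLC22A5* and *ACADM* were added after their values were seen, and so were the motif windows of 1000 bases and the protein-coding background. Some genes of the lists are not reported here by name. Counting error is not the only error here, and the spread between libraries sets the precision.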

Additional observations from a re-analysis of the deposited data

Results flagged for a closer look

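Reads that fell in more than one gene, which HTSeq-count sets aside as ambiguous and counts on no gene, reached 9.84% of all reads in an ERRg library. The value stands out because it lies above the control libraries and these reads enter no level above. Their share was cited above only as a limit on *CPT1B*. The share was 4.55%, 4.81% and 4.87% in GFP 1, 3 and 4, and 5.69%, 9.84% and 9.79% in ERRg 2, 3 and 4. Among the genes of fatty acid oxidation, *SCP2*, *ACAA2* and *ETFB* share 15.4%, 7.83% and 5.19% of their exon bases with other genes on the same strand. Whether ambiguous reads took counts from these genes was not tested.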

How the results depend on the processing

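The numbers 3 and 4 are shared by both groups, but nothing ties libraries of the same number, and their deviations from the group means had correlations of 0.075 and −0.000102. With the replicate number as a block (6 libraries, of which 4 form 2 pairs), 18 genes were higher and 1 lower, and adding the correction for GC and length to the block gave 16 and 1. The 17 genes higher and 2 lower became 17 and 1 with RLE size factors, 19 and 1 with DESeq2 and 15 and 1 with the GC and length correction. Scaling by library size only gave 6 and 3. They became 11 and 2 when only protein-coding genes were fitted, 3 and 1 with the covariate for reads in no feature, and 5 and 0 with a 2-fold cutoff. Over all tested genes, 2200 were higher and 7566 lower with library size only, 2814 and 2468 with protein-coding genes only, 1773 and 1323 with the covariate, and 1952 and 1982 with a 2-fold cutoff. The median of the 35 genes was 0.187 with library size only and 0.198 with the covariate. Leaving out each library in turn gave 13 to 19 genes higher, 0 to 2 lower and a median of 0.494 to 0.717. The 13 came without ERRg replicate 4, and the 0 lower without ERRg replicate 2, where *EHHADH* and *SLC22A5* stayed below GFP under the fold cutoff. In these fits a group has 2 libraries.

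Of the 57 other genes of the pathway, 10 were higher with library size only, 7 with the covariate and 9 with a 2-fold cutoff. Lower ones numbered 3 with RLE size factors, 1 with DESeq2, 2 with the GC and length correction, 9 with protein-coding genes only, 10 with library size only, 0 with the covariate, 8 with no fold cutoff, 1 with a 2-fold cutoff, and 2 to 5 without 1 library.

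Reversed log2 fold changes were all within 0.28 of 0. With DESeq2, *SCP2* had 0.0245 and *OXCT1* 0.00658. With the GC and length correction, *SCP2* had 0.146, *OXCT1* 0.099 and *ACAD10* −0.163. With RLE size factors *SCP2* had 0.0106, and with the replicate block 0.0216. With the block and the correction together, *SCP2* had 0.275, *OXCT1* 0.185, *ACAT1* 0.0688 and *ACAD10* −0.158. With library size only, *ACAD10* had −0.234, *CROT* −0.236, *ACADM* −0.0359, *ACADSB* −0.198, *HADH* −0.0465, *ETFDH* −0.0256, *ACOX3* −0.06 and *HSD17B4* −0.198. With protein-coding genes only, *ACAD10* had −0.05, *CROT* −0.049, *ACADSB* −0.0127 and *HSD17B4* −0.00733. With the covariate, *CROT* had −0.0363, *HADH* −0.217 and *HSD17B4* −0.18. Without 1 library, *SCP2* ranged from −0.109 to 0.0963 and *OXCT1* from −0.134 to 0.0322. The causes were not tested. Of 559 member values under alternatives, 459 kept their direction and their side of the call.

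With 3 libraries per group, 1 cell line and 1 time point, small differences may fall short of the test. Whether *HADH* is such a case is not known, since its value was −0.0465 with library size only and −0.217 with the covariate. *ACSL5*, *ACSL6* and *ACAD11* were limited by their counts. Reads that align to several places made up 7.16% to 13% of reads and entered no gene, so a gene listed at 0, such as *DECR2*, is not shown to be silent.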
